A study of Homo sapiens with 10 samples.

Results

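The genes described here are the cyclin-dependent kinase (CDK) inhibitors CDKN1A, CDKN1B, CDKN2C and CDKN2D, the retinoblastoma family RB1, RBL1 and RBL2, and the D cyclins CCND1, CCND2 and CCND3. They were chosen by gene symbol, not by their values. All 10 were found among the 21958 genes of the NB4 table, and 6 of the 10 among the 10795 gene symbols matched in the Kasumi-1 table. CDKN1B, CDKN2C, RB1 and CCND3 had no matched row in Kasumi-1 and were not analysed there. Messenger RNA was sequenced from 10 libraries of 2 human acute myeloid leukaemia cell lines, each cultured for 48 h with the agent JOA at 1 µM or with a control. Kasumi-1, a line that carries the RUNX1-RUNX1T1 fusion, had 3 JOA and 3 control libraries, and NB4, an acute promyelocytic leukaemia line that carries the PML-RARA fusion, had 2 JOA and 2 control libraries. The labels do not say what JOA or the control treatment is. In NB4 the source label of the treated libraries names I13, whereas the title and the agent name JOA.

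D cyclins bind CDK4 and CDK6, and the resulting kinases phosphorylate the retinoblastoma family proteins, which releases E2F transcription factors to switch on genes for DNA replication. INK4 proteins (CDKN2C, CDKN2D) block CDK4 and CDK6 directly, while CIP/KIP proteins (CDKN1A, CDKN1B) bind cyclin-CDK complexes more broadly and restrain CDK2. In myeloid cells this switch is known to govern the exit from the cell cycle that goes with maturation, and much of its control acts on protein stability and phosphorylation, which RNA levels do not show.

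Kasumi-1 values are FPKM and NB4 values are TPM, both scaled for transcript length and library size. Each table had its own scaling, and levels were therefore read within a line and not across lines. NB4 depth is unknown, and Kasumi-1 depth ranged from 91.4 to 100% of that of control 1. Kasumi-1 libraries held its line markers, with RUNX1T1 at a mean of 18.6 FPKM with JOA and 18.8 FPKM with control. NB4 held myeloid MPO but hardly any RUNX1T1, at 0.0114 TPM with JOA and 0 TPM with control. Summed over 13 myeloid and line markers, NB4 JOA libraries held 5393 to 6770 TPM and control libraries 8952 to 9085 TPM. MPO, at a mean of 5282 TPM with JOA and 7838 TPM with control, made up most of both sums. Of the 11 markers tested, 7 were lower with JOA and 4 higher. PRTN3, a neutrophil granule protease, averaged 41.5 ± 0.613 TPM with JOA and 199 ± 81.9 TPM with control (SD, n = 2 each). CD33 went the other way, at 73.8 ± 2.27 TPM with JOA and 54.1 ± 6.11 TPM with control. Summed over 13 markers of other cell types, NB4 libraries held 97.9 to 114 TPM with JOA and 75.7 to 76.3 TPM with control. All 7 of those markers that were tested were higher with JOA, as were 66.2% of all NB4 genes tested. In every library of each group, 6 of the 13 were under 1 TPM. CD3D, at a mean of 39.5 TPM with JOA and 26.7 TPM with control, and KRT18, at 30.5 TPM with JOA and 20.8 TPM with control, made up most of that sum, while CD3E averaged 0.0480 TPM with JOA and 0.0454 TPM with control. Mitochondrial transcripts took 11.2 and 13.1% of TPM in NB4 JOA libraries and 14.6 and 16.4% in control libraries. In Kasumi-1 the sum over 5 markers of other cell types overlapped between groups, at 38.6 to 48.4 FPKM with JOA and 40.5 to 50.5 FPKM with control. The part of these NB4 differences in the results below was not tested.

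No gene of the 10 passed an adjusted p of 0.05 in either line when JOA and control libraries were compared without pairing (limma on log2(value + 1), Benjamini-Hochberg adjustment over all features). The threshold was passed by 0 of 12101 features in Kasumi-1 (0%), where 1982 had an unadjusted p under 0.05, and by 1 of 12941 genes in NB4 (0.00773%), where 1375 did. At an unadjusted p under 0.05 stood 1 of the 10 genes in NB4, CDKN2D, which was higher with JOA, as were 8.20% of all genes tested at that level. In Kasumi-1 0 of 5 genes did, where 11.7% of features were higher and 4.68% lower. In NB4 every JOA value lay above every control value for CDKN1B, CDKN2C, CDKN2D and CCND3, that is 4 of 10 genes against 32.5% of all genes tested, and below for CDKN1A and CCND1, 2 of 10 against 11.0%. In Kasumi-1 the groups were apart, with JOA above, for 1 of the 5 genes tested, CDKN1A, against 16.0% of features, and 0 of 5 lay below, against 7.10%. These shares of the 10 genes are near those of all genes. In RNA from bulk cultures, a different share of cells in a given state and a different amount of RNA per cell cannot be told apart.

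**Figure D1:**
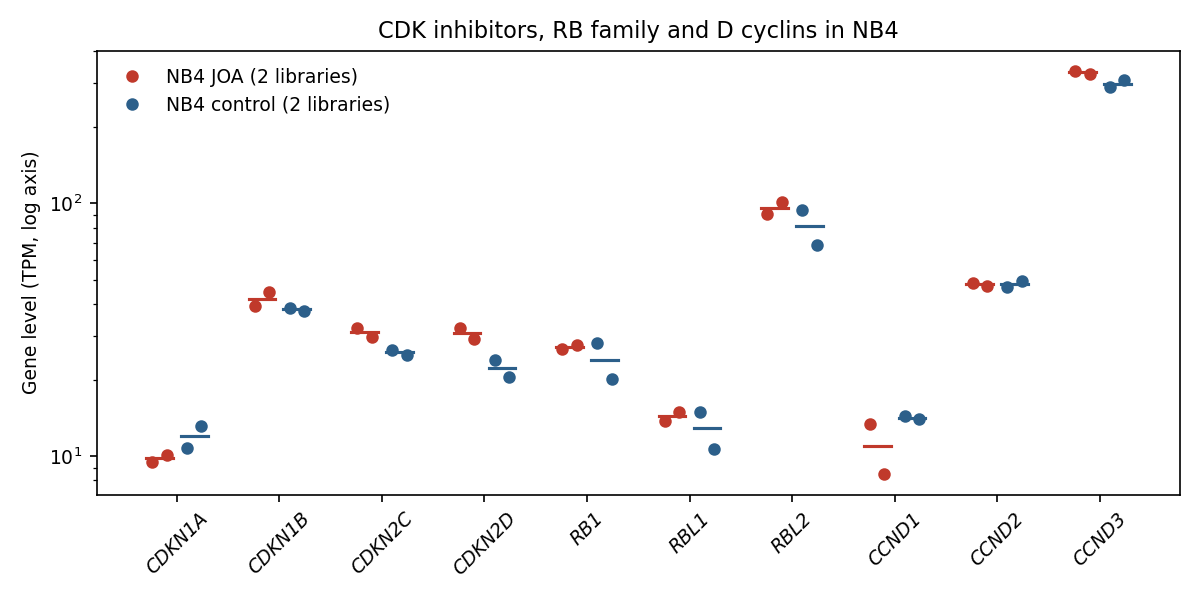
NB4 levels (TPM, log axis) of the 10 genes, with 1 point per library, a bar at each group's mean and JOA to the left of control for each gene. CDKN2D lies at 32.2 and 29.0 TPM with JOA, above 24.0 and 20.5 TPM with control, while CCND2 overlaps between the groups.

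Within NB4 the order of the 10 genes, in mean TPM with JOA, ran from CCND3 at 331 through RBL2 at 95.6, CCND2 at 47.8, CDKN1B at 41.9, CDKN2C at 30.8, CDKN2D at 30.6, RB1 at 27.0, RBL1 at 14.4 and CCND1 at 10.9 to CDKN1A at 9.79. The control means put CCND3 at 297 TPM, RBL2 at 81.1, CCND2 at 48.1, CDKN1B at 38.0, CDKN2C at 25.7, RB1 at 24.1, CDKN2D at 22.2, CCND1 at 14.2, RBL1 at 12.9 and CDKN1A at 12.0. With JOA the neighbours CDKN2C and CDKN2D overlapped, as did CCND1 and CDKN1A. With control the overlapping neighbours were CDKN2C with RB1, RB1 with CDKN2D, CCND1 with RBL1, and RBL1 with CDKN1A. In Kasumi-1 the order in mean FPKM was CCND2, RBL2, RBL1, CDKN1A, CDKN2D and CCND1 in both groups, and CDKN1A overlapped with CDKN2D in both. CDKN2D also overlapped with CCND1 with JOA.

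Among the CIP/KIP inhibitors, CDKN1A stood higher with JOA in Kasumi-1 and lower with JOA in NB4, in neither line past the threshold. CDKN1A (chromosome 6, 36676460 to 36687339, plus strand, GRCh38) encodes p21, the inhibitor through which p53 is best known to stop the cycle. In Kasumi-1 it measured 1.87, 2.09 and 2.03 FPKM in JOA libraries 1 to 3, against 1.61, 1.78 and 1.53 FPKM in control libraries 1 to 3. All 3 JOA values were above all 3 control values, but the gene was weakly covered. Its FPKM steps put 95, 108 and 103 reads behind the JOA values and 89, 95 and 77 behind the control values, so counting alone gave a coefficient of variation of 9.62 to 11.4% per library. The means were 2.00 ± 0.112 FPKM with JOA and 1.64 ± 0.129 FPKM with control (SD, n = 3 each), a log2 difference of 0.18 with a standard error (SE) of 0.10 (limma adjusted p = 0.399). The 95% interval of that log2 difference ran from -0.05 to 0.42.

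In NB4, CDKN1A measured 9.47 and 10.1 TPM with JOA, against 10.8 and 13.1 TPM with control. Both JOA values lay below both control values. The log2 difference was -0.26 with an SE of 0.17 (limma adjusted p = 0.613) and a 95% interval from -0.65 to 0.13, and it was -0.13 without control library 2. The difference between the lines was tested in 1 fit over all 10 libraries, as the Kasumi-1 log2 difference minus the NB4 one. For CDKN1A it was 0.44 with an SE of 0.16 and a 95% interval from 0.10 to 0.79, and it did not pass the threshold (limma adjusted p = 0.313). Over the other settings tried, it lay between 0.32 and 0.57, with limma adjusted p from 0.0965 to 0.504. Across the 7110 genes compared, 14 passed the threshold in that fit (0.197%), and 0 of the 6 genes present in both tables did.

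CDKN1B (chromosome 12, 12715058 to 12722371, plus strand) encodes p27, an inhibitor of cyclin-CDK2 that accumulates in many resting cells. In NB4 it measured 39.1 and 44.7 TPM with JOA, against 38.7 and 37.4 TPM with control, a narrow gap at the lowest JOA value. The log2 difference of 0.13 (SE 0.12, limma adjusted p = 0.717) was 0.03 with median-ratio scaling, 0.23 without JOA library 1 and 0.04 without JOA library 2. CDKN1B made up 80.5 and 81.6% of the summed TPM of CDKN1A and CDKN1B with JOA, and 78.2 and 74.1% with control. Of the CIP/KIP family, CDKN1C (p57) is no member of the 10 but was in the list of CDK partners and other inhibitors. In NB4 it averaged 2.15 ± 0.507 TPM with JOA and 0.756 ± 0.249 TPM with control (SD, n = 2 each; limma adjusted p = 0.353, and 0.0412 with variance shared over both lines). Both control values lay under the filter of 1 TPM, so CDKN1C passed that filter in NB4 only through its JOA libraries. In Kasumi-1 its log2 difference was -0.13 (limma adjusted p = 0.711).

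Both INK4 genes stood higher with JOA in NB4, and CDKN2D had the largest positive log2 difference of the 10 genes in that line. CDKN2D (chromosome 19, 10566462 to 10569059, minus strand) encodes p19-INK4d. It measured 32.2 and 29.0 TPM with JOA, against 24.0 and 20.5 TPM with control, with no overlap. The means were 30.6 ± 2.31 TPM with JOA and 22.2 ± 2.46 TPM with control (SD, n = 2 each). The log2 difference was 0.45 with an SE of 0.14 and a 95% interval from 0.12 to 0.77, and it missed the threshold over all genes (limma adjusted p = 0.349). With variance shared over both lines, a fit that called 2.17% of 7110 genes in NB4, CDKN2D was not called either (limma adjusted p = 0.135). Its main transcript, CDKN2D-201, measured 27.2 and 23.2 TPM with JOA and 19.5 and 17.5 TPM with control. The less abundant CDKN2D-202 measured 5.02 and 5.80 TPM with JOA and 4.46 and 2.98 TPM with control.

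Kasumi-1 gave no such separation for CDKN2D. The gene measured 1.72, 1.41 and 1.88 FPKM with JOA, against 1.29, 1.94 and 1.41 FPKM with control, on 36 to 47 reads with JOA and 35 to 51 reads with control. Its log2 difference was 0.08 (SE 0.14, 95% interval -0.25 to 0.40, limma adjusted p = 0.822), and without 1 library it ran from 0.00 to 0.18. The test of the difference between the lines gave -0.37 on the log2 scale (SE 0.19, limma adjusted p = 0.481).

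CDKN2C (chromosome 1, 50960745 to 50974633, plus strand) encodes p18-INK4c. In NB4 it measured 32.0 and 29.7 TPM with JOA, against 26.2 and 25.2 TPM with control. The groups did not overlap, and the log2 difference was 0.25 with an SE of 0.12 (limma adjusted p = 0.516; 0.16 with median-ratio scaling). The 2 INK4 genes summed to 64.2 and 58.7 TPM with JOA, and to 50.2 and 45.7 TPM with control. Most CDKN2C RNA was assigned to 1 transcript, CDKN2C-203, whose start was within 500 bases of the RefSeq start at 50968706. That start took 91.5 and 88.8% of CDKN2C TPM with JOA and 91.3 and 93.8% with control.

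The 300 bases around that start are printed below beside those of RBL1, because the 2 windows were the only ones among the RefSeq start windows found for the 10 genes that held an E2F core. CCND3, CDKN2C and RBL2 had more than 1 window each, and every other gene with a window had 1. No window was found for CCND1 or CCND2, which were thus not searched. For RB1 the only window lay at a start that took 11.1 and 1.54% of RB1 TPM with JOA and 15.2 and 2.37% with control. The main RB1 start was not searched either. The core was searched on both strands in 4 forms, namely TTCCCGC and the form TTCGCGC, and likewise TTGCCGC and the form TTGGCGC, and 13.0% of 35116 RefSeq promoters of the same length held at least 1. Each window runs from 250 bases before the start to 50 after it (RefSeq, GRCh38.p14), is written 5′ to 3′ on the gene's strand, and has the matches in capitals. CDKN2C lies at chr1:50968456-50968755 on the plus strand and RBL1 at chr20:37095948-37096247 on the minus strand.
CDKN2C: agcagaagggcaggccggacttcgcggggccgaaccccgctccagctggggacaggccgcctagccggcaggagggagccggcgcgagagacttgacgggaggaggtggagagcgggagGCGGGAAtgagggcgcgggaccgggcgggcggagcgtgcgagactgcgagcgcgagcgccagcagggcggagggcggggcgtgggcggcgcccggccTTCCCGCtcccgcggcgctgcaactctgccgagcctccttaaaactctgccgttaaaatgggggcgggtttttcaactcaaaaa
RBL1: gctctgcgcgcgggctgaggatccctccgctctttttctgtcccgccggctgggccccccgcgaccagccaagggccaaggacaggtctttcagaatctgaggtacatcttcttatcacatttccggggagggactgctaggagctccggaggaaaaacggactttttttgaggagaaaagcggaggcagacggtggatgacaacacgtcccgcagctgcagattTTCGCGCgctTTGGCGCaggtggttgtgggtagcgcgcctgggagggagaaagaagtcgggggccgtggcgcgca
Each window held 2 matches. A match describes letters in the window and says nothing of binding in these cells.

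**Figure D2:**
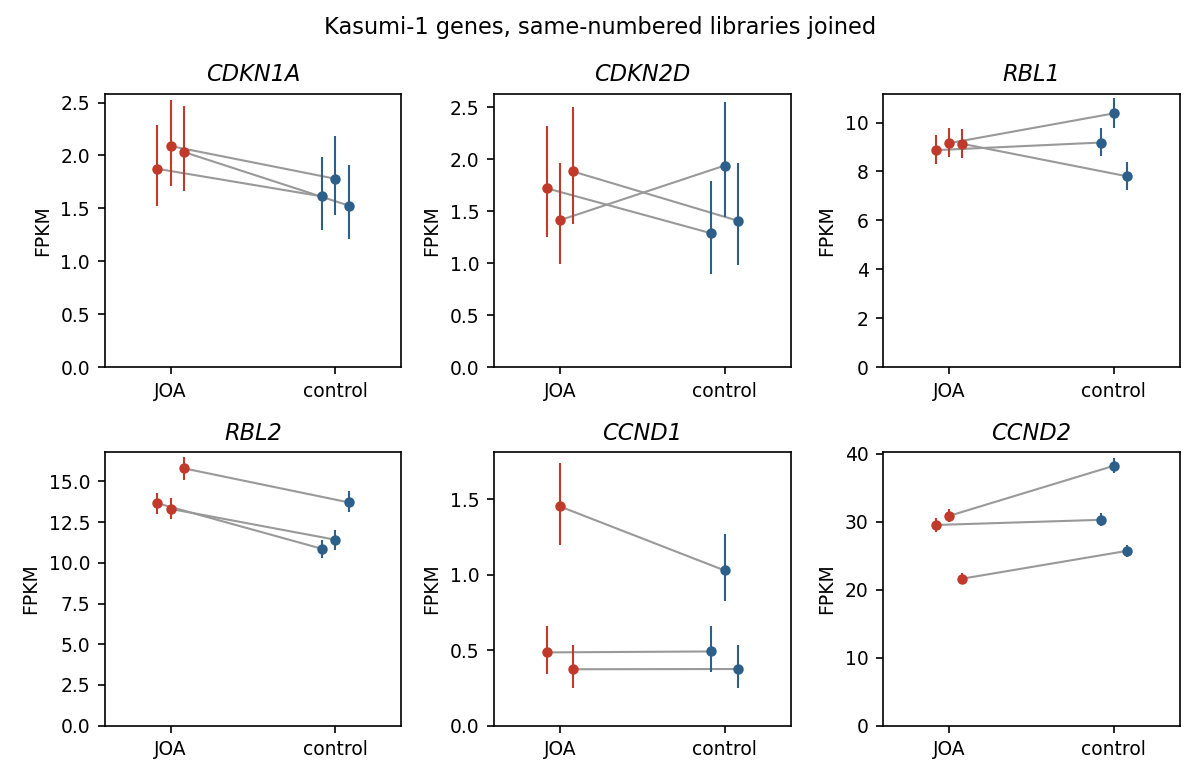
Kasumi-1 levels (FPKM) of the 6 genes found in that table, with JOA left of control, vertical bars for the 95% counting interval of each library's reads, and lines joining libraries of the same number. RBL2 is higher with JOA in every joined pair, and CCND1 is highest in the libraries numbered 2 of both groups.

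In the retinoblastoma family, RBL2 was the only gene of the 10 to pass the threshold under any setting tried, and it did so in Kasumi-1 when same-numbered libraries were compared as pairs. RBL2 (chromosome 16, 53433977 to 53491649, plus strand) encodes p130, the family member that represses E2F targets in resting cells as part of the DREAM complex. In Kasumi-1 it measured 13.7, 13.3 and 15.8 FPKM with JOA, against 10.9, 11.4 and 13.7 FPKM with control. JOA library 3 and control library 3 were the highest of their groups, and the groups overlapped. The unpaired log2 difference was 0.23 with an SE of 0.10 and a 95% interval from -0.01 to 0.47 (limma adjusted p = 0.316). Per pair the ratio of JOA to control was 1.26, 1.17 and 1.15, and with the replicate number as a block the SE was 0.05 (limma adjusted p = 0.0440). That fit called 985 of 12101 features (8.14%), and 6.08% were called higher. Without pair 1, 2 or 3 RBL2 was no longer called, with limma adjusted p of 0.163, 0.0940 and 0.125, and with block and median-ratio scaling together the log2 difference was 0.17 (limma adjusted p = 0.0694). RBL2 and CDKN1A were higher with JOA in 3 of 3 pairs, 2 of the 5 genes tested against 36.0% of features, and CCND2 was lower in 3 of 3, 1 of 5 against 17.8%.

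In NB4, RBL2 measured 90.5 and 101 TPM with JOA, against 93.9 and 68.4 TPM with control. Control library 2 was low and control library 1 lay between the JOA values. The log2 difference was 0.25 (SE 0.16, 95% interval -0.12 to 0.62, limma adjusted p = 0.605). It was 0.48 without control library 1, 0.02 without control library 2 and 0.15 with median-ratio scaling. More than a single kind of transcript made up this sum, since retained-intron transcripts took 52.6 and 56.6% of RBL2 TPM with JOA and 59.8 and 55.2% with control. The full-length coding transcript RBL2-201 measured 41.6 and 41.2 TPM with JOA and 35.8 and 29.3 TPM with control, without overlap, and its log2 difference was 0.34 (limma adjusted p = 0.742 over 51643 transcripts). With protein-coding transcripts only, the gene's log2 difference was 0.35 (limma adjusted p = 0.321). Between the lines the RBL2 log2 differences differed by -0.02, with a 95% interval from -0.44 to 0.41 (limma adjusted p = 0.985).

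RBL1 (chromosome 20, 36996349 to 37095995, minus strand) encodes p107, a family member that is itself an E2F target in cycling cells. In Kasumi-1 it measured 8.87, 9.16 and 9.13 FPKM with JOA, against 9.18, 10.4 and 7.80 FPKM with control. The JOA values lay inside the control range, and the log2 difference of -0.00 had a 95% interval from -0.23 to 0.23 (limma adjusted p = 0.995). In NB4 it measured 13.8 and 15.0 TPM with JOA and 15.0 and 10.7 TPM with control, a log2 difference of 0.17 (limma adjusted p = 0.769).

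RB1 (chromosome 13, 48303726 to 48599436, plus strand), the founding tumour suppressor of the family, measured 26.5 and 27.6 TPM with JOA in NB4, against 28.0 and 20.1 TPM with control. The groups overlapped, and the log2 difference was 0.18 (SE 0.17, 95% interval -0.22 to 0.58, limma adjusted p = 0.730). Control library 2 was the lowest NB4 library for all 3 family members, and without it the log2 difference was -0.05 for RB1 and -0.06 for RBL1, while without control library 1 it was 0.41 for RB1 and 0.40 for RBL1. The makeup of the family varied little between libraries. RBL2 held 69.2 and 70.3% of the summed family TPM with JOA and 68.6 and 69.0% with control.

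**Figure D3:**
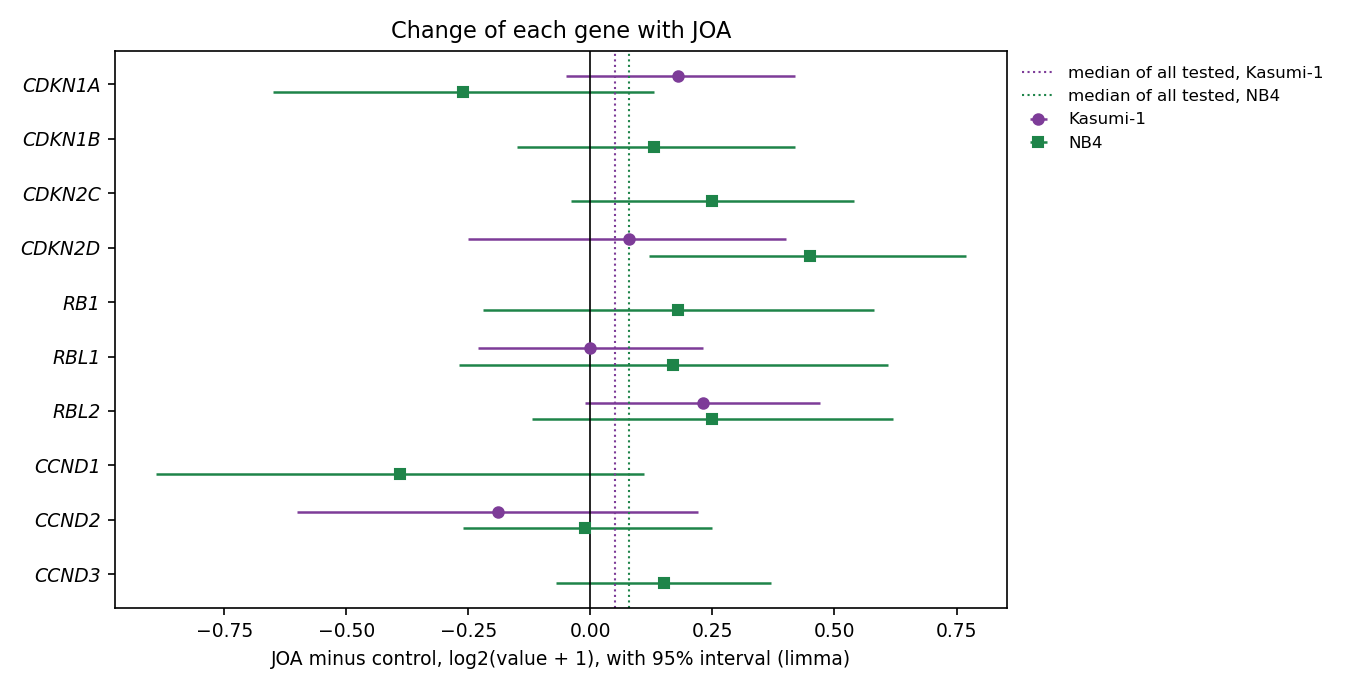
Log2 difference, JOA minus control, of each gene in Kasumi-1 and NB4, with 95% intervals from the unpaired limma fits and dotted lines at the median of all features tested in each line. CDKN2D in NB4, at 0.45, is the only gene whose interval stays on the positive side of 0, and CDKN1A lies at 0.18 in Kasumi-1 and -0.26 in NB4.

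D cyclins were dominated by CCND3 in NB4, and no D cyclin tested in either line differed between the groups past the threshold. CCND3 (chromosome 6, 41934933 to 42050357, minus strand) encodes cyclin D3. It measured 335 and 326 TPM with JOA, against 288 and 307 TPM with control. The groups did not overlap, yet the log2 difference was 0.15 with an SE of 0.09 (limma adjusted p = 0.599) and was 0.05 with median-ratio scaling. CCND3 held 84.4 and 85.4% of the summed D cyclin TPM with JOA and 82.5 and 82.9% with control.

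CCND2 (chromosome 12, 4273772 to 4305350, plus strand) encodes cyclin D2. In Kasumi-1 it was the highest of the 6 genes, at 29.5, 30.8 and 21.6 FPKM with JOA, against 30.3, 38.2 and 25.7 FPKM with control. The groups overlapped, and the libraries numbered 3 were lowest in both. The log2 difference was -0.19 (SE 0.17, 95% interval -0.60 to 0.22, limma adjusted p = 0.621), and in pairs the adjusted p was 0.103. It was -0.04 without JOA library 3, -0.05 without control library 2 and -0.32 without control library 3. In NB4 it measured 48.3 and 47.3 TPM with JOA and 46.7 and 49.4 TPM with control, a log2 difference of -0.01 with a 95% interval from -0.26 to 0.25 (limma adjusted p = 0.988).

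CCND1 (chromosome 11, 69641087 to 69654474, plus strand) encodes cyclin D1. In Kasumi-1 it measured 0.486, 1.45 and 0.374 FPKM with JOA, against 0.492, 1.03 and 0.376 FPKM with control, on 30 to 119 reads with JOA and 30 to 87 with control. It reached 1 FPKM only in the libraries numbered 2 and so was not tested there. The shared number, rather than the treatment, went with the high values. In NB4 CCND1 measured 13.4 and 8.46 TPM with JOA, against 14.4 and 14.0 TPM with control, a log2 difference of -0.39 (SE 0.21, 95% interval -0.89 to 0.11, limma adjusted p = 0.563). It was -0.69 without JOA library 1 and -0.08 without JOA library 2. Retained-intron transcripts took 43.7 and 28.4% of it with JOA and 41.8 and 25.8% with control, while the coding CCND1-201 measured 7.52 and 6.05 TPM with JOA and 7.37 and 9.65 TPM with control, overlapping.

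Of 58 annotated NB4 transcripts of the 10 genes, 33 passed the filter and 0 were called, as were 0 of all 51643 tested (0%; limma), of which 3469 had an unadjusted p under 0.05. Every JOA value lay above every control value for 11 of the 33, against 24.5% of all transcripts tested, and below for 2, against 13.2%. An unadjusted p under 0.05 was seen for 2 of the 33, CCND3-220 and CDKN2D-201, both higher with JOA (limma adjusted p = 0.739 for each), against 4.19% of all transcripts higher and 2.53% lower at that level. CCND3-220 is a processed transcript without an annotated reading frame that starts at the far CCND3 start, and it measured 9.51 and 8.62 TPM with JOA and 6.33 and 4.41 TPM with control.

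CCND3 RNA was assigned to 2 main starts. The near start, at 41941808, gathered 4 transcripts with 251 and 254 TPM with JOA, and 227 and 244 TPM with control. The far start, at 42048688, gathered 13 transcripts with 48.3 and 42.4 TPM with JOA, against 29.1 and 34.7 TPM with control. The far start thus made up 14.4 and 13% of CCND3 TPM with JOA and 10.1 and 11.3% with control, without overlap and with no test of the share. Another 4 CCND3 transcripts began more than 500 bases from any RefSeq start found for the gene. They held 35.3 and 29.7 TPM with JOA and 31 and 27.5 TPM with control, overlapping. Assignment of short reads to transcripts that share exons is an estimate. The windows of both starts are shown because the gap between groups in CCND3 lay in part at the far one. They are the RefSeq windows chr6:41941759-41942058 (near) and chr6:42048639-42048938 (far), both on the minus strand (GRCh38.p14), and capitals mark any CCAAT, searched on both strands and present in 34.6% of promoters.
CCND3 near: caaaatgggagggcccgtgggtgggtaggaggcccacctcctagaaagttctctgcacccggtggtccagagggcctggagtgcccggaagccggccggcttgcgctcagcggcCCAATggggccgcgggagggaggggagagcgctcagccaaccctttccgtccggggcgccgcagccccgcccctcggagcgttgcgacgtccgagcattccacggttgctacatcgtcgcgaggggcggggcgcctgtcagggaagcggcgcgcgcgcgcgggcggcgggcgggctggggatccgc
CCND3 far: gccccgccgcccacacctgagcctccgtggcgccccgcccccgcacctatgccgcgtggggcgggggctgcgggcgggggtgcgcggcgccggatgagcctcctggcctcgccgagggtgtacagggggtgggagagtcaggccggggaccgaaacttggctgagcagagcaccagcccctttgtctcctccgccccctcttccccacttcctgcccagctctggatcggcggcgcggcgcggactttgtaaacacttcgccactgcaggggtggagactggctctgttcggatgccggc
The near window held 1 match, and the far window, with 0, is in lower case throughout. Another RefSeq window of CCND3, with its start at 41939205, held 1 match but took no NB4 transcript and is not shown.

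**Figure D4:**
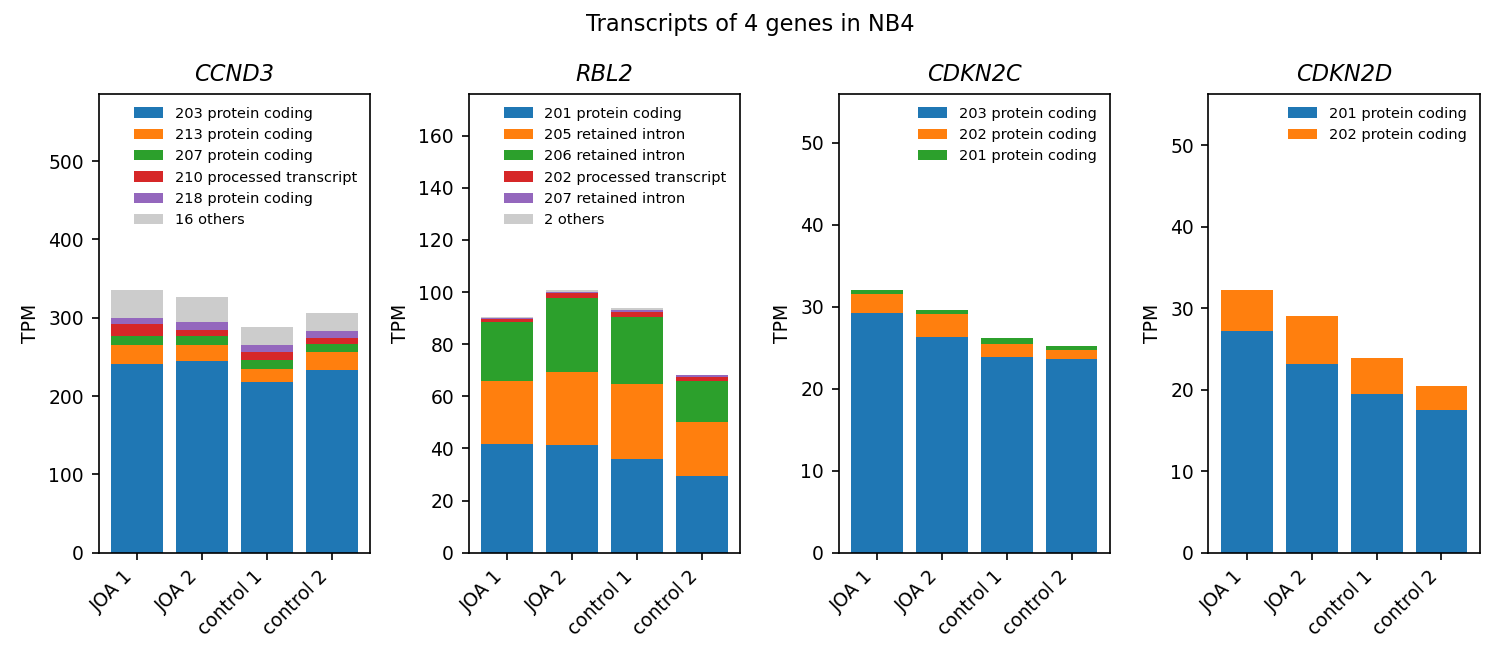
NB4 levels (TPM) of the transcripts of 4 genes as stacked bars, 1 bar per library, JOA left of control. CCND3-203 holds most CCND3 RNA at 240.4 and 245 TPM with JOA and 218 and 233 TPM with control, and CDKN2D-201 is apart between the groups.

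Other genes of the pathway were read from lists, each set beside all features tested, whose median log2 difference was 0.08 in NB4 and 0.05 in Kasumi-1, and -0.00 and -0.01 with median-ratio scaling. None of the listed genes passed the threshold without pairing when each line was fitted alone (limma). With variance shared over both lines, 5 of them were called in NB4, namely CDKN1C and FAS, a death receptor, which were higher with JOA, and DTL, UNG and BTG2, an antiproliferative gene, which were lower (limma adjusted p = 0.0412, 0.0469, 0.0189, 0.0238 and 0.0468 in that order). That fit held only genes found in both tables, so not every listed gene entered it. It called 154 of all 7110 genes in NB4 (2.17%), 120 higher and 34 lower. CDKN1C averaged under 1 TPM with control. In NB4, where 66.2% of all genes were higher with JOA, 11 of 18 CDK partners and other inhibitors were higher (median log2 difference 0.07), as were 7 of 15 E2F, DP and DREAM subunits (median -0.01) and 9 of 15 genes of inhibitor and cyclin turnover (median 0.01). Of the p53 target genes 17 of 25 were higher (median 0.08). The E2F target genes were higher in 5 of 28 and lower in 23 of 28, with a median of -0.13, and 4 of the 28 were lower at an unadjusted p under 0.05, against 2.43% of all genes.

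In NB4 the E2F target UNG, a uracil-DNA glycosylase, averaged 131 ± 12.8 TPM with JOA and 192 ± 15.0 TPM with control (log2 difference -0.55, limma adjusted p = 0.201, and 0.0238 with shared variance). The replication licensing helicase subunit MCM7 averaged 447 ± 18.6 TPM with JOA and 524 ± 13.0 TPM with control (-0.23, limma adjusted p = 0.458). E2F1, an activator of the replication genes, averaged 49.4 ± 3.14 TPM with JOA and 61.5 ± 2.72 TPM with control (-0.31, limma adjusted p = 0.409). DTL, which directs the CRL4 ubiquitin ligase to p21 for destruction, averaged 30.8 ± 1.34 TPM with JOA and 43.4 ± 2.11 TPM with control (-0.48, limma adjusted p = 0.276, and 0.0189 with shared variance). CDK1, the mitotic kinase, averaged 143 ± 12.5 TPM with JOA and 111 ± 2.28 TPM with control (0.36, limma adjusted p = 0.321). For each of these 5 genes the groups did not overlap (SD, n = 2 each), but the genes were named for a low p within their lists. Of all NB4 genes tested, 32.5% had groups apart with JOA higher and 11.0% with JOA lower.

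In Kasumi-1, where 61.9% of all features were higher with JOA, 3 of 10 CDK partners and other inhibitors were higher (median log2 difference -0.09), as were 7 of 12 E2F, DP and DREAM subunits (0.01), 5 of 10 turnover genes (-0.00), 8 of 19 E2F targets (-0.01) and 8 of 12 p53 targets (0.04). With same-numbered libraries as pairs, 4 listed genes were called. Of the CDK partners and other inhibitors, 1 of 10 was called higher and 1 of 10 lower. Of the turnover genes 1 of 10 was called lower, as was 1 of 19 E2F targets. No E2F, DP and DREAM subunit or p53 target was called. CDK4, the D cyclin partner, fell to 36.2 ± 1.87 FPKM with JOA, against 42.1 ± 3.13 FPKM with control (log2 difference -0.21, limma adjusted p = 0.0379 in pairs and 0.225 unpaired). SKP2, the F-box protein that marks p27 for destruction, fell to 17.5 ± 1.00 FPKM with JOA, against 20.4 ± 1.60 FPKM with control (-0.21, limma adjusted p = 0.0467 in pairs and 0.250 unpaired). MCM7 fell to 88.8 ± 5.02 FPKM with JOA, against 108 ± 10.5 FPKM with control (-0.27, limma adjusted p = 0.0323 in pairs and 0.202 unpaired). CDC25C, a phosphatase that activates CDK1, rose to 3.91 ± 0.762 FPKM with JOA, against 2.93 ± 0.401 FPKM with control (0.31, limma adjusted p = 0.0494 in pairs and 0.307 unpaired). In pairs, 8.14% of all features were called, with 6.08% higher and 2.06% lower. Without pair 1 or without pair 3 the paired fit called 0 features, these 4 included. E2F1 averaged 21.6 ± 1.98 FPKM with JOA and 19.0 ± 0.465 FPKM with control (0.18, limma adjusted p = 0.299 unpaired). CDK6, the other D cyclin partner, averaged 105 ± 4.46 FPKM with JOA and 121 ± 11.9 FPKM with control and was not called in pairs (limma adjusted p = 0.0596).

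**Figure D5:**
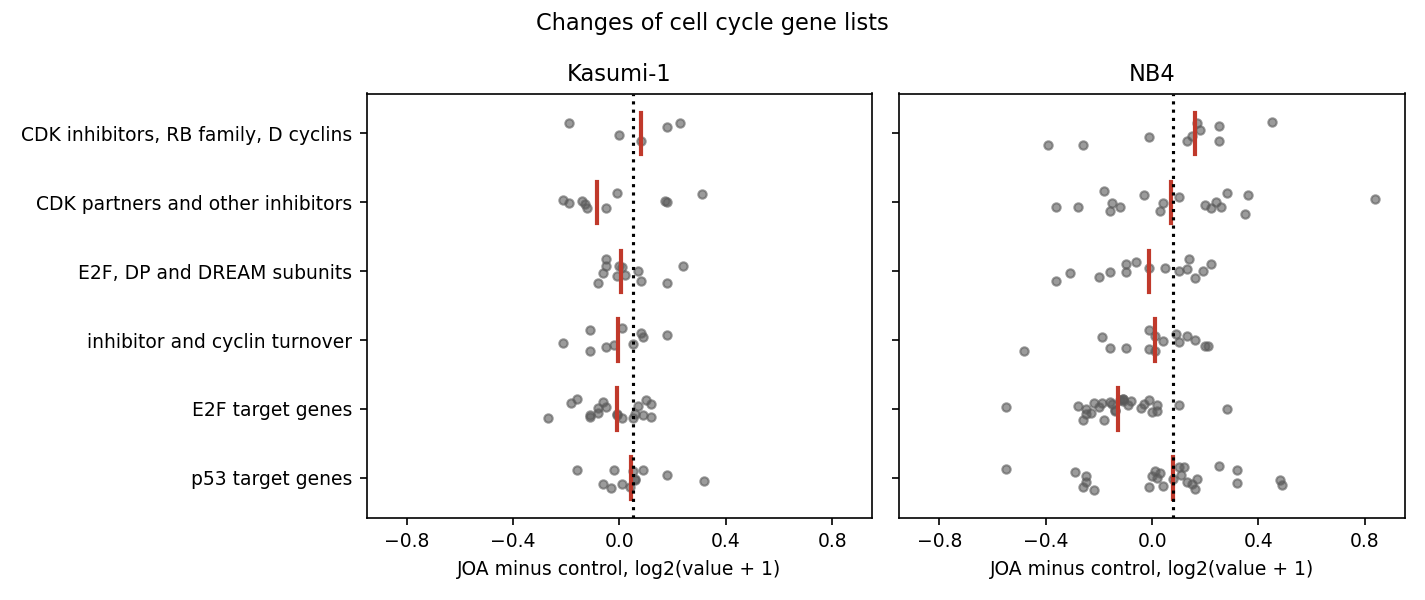
Log2 difference, JOA minus control, of every tested gene in the 10 genes described and in the pathway lists, for each line, with a red mark at each list's median and a dotted line at the median of all features tested. The E2F targets in NB4 lie mostly below 0, with a median of -0.13, while the 10 genes have a median of 0.16 in NB4 and the 5 tested in Kasumi-1 one of 0.08.

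For genes tested in both lines, the gene with the most similar pattern over the 10 libraries, after the mean of each line was subtracted, was found among 5653 others. RBL2 was most like UHRF2 (Pearson r 0.986), RBL1 most like STAG2 (r 0.967) and CDKN2D most like HDAC8 (r 0.946). These values describe 10 libraries that share line, replicate number and scaling, and for RBL2 there were 72 genes with an r over 0.9.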

How the data were processed

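RNA was sequenced in 10 libraries with a TruSeq stranded mRNA kit after Trizol extraction, per the labels' protocols. Trimmomatic, HISAT2, Cufflinks, HTSeq and hg38 are named in the submitters' processing notes, without versions or roles. The authors deposited FPKM values for Kasumi-1, in 29053 rows of sequence records, of which 37.5% matched 10795 symbols, with 1 record for each of the 6 genes analysed there. The deposited NB4 table is named for FPKM, but its columns sum to 999679 to 999758, so the authors' values were taken as TPM. Its transcripts (93.9% matched to GENCODE 29) were summed to genes, and 3.04% of TPM stayed unmatched. The planned test was kept for this unit.

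Features at 1 or more in at least 3 (Kasumi-1) or 2 (NB4) libraries were tested with limma 3.58.1 (R 4.3.3) on log2(value + 1), with a variance trend and no block. This scale understates changes of low genes. Both lines entered 1 fit for the difference between them. Reads behind Kasumi-1 values were recovered from FPKM steps, and 99.8% of 2000 low rows gave whole reads within 0.01. Intervals from reads cover counting error only. Deviations of same-numbered Kasumi-1 libraries correlated at 0.33 to 0.5 and all others at -0.0611 or below, so those numbers were taken as pairs, from the data and not from a label. Deviations cancel out within a group, so the negative values are not separate evidence. The fits were tested on simulated data. Named genes were the 10 genes and, per list, up to 4 with the lowest p in a line. RUNX1T1 and CD3E, given as line and cell type markers, fall outside this rule and were chosen after their values were seen. The members and lists were chosen with earlier results of these data known. The labels do not say whether replicates came from separate cultures, and the p-values thus cover the spread between libraries, which may be technical.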

Additional observations from a re-analysis of the deposited data

How the results depend on the processing

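Of 266 values of the 10 genes under other settings, 246 kept their direction and side of the threshold, 1 passed it (RBL2 in Kasumi-1 with the replicate block, which took the genes called among the 10 to 1) and 19 changed sign, in 7 of 21 results. The cause was not tested. Without 1 library or pair, the RBL2 difference between lines (-0.02) was 0.01 without Kasumi-1 JOA 1, 0.03 without JOA 2, 0.08 without Kasumi-1 control 3, 0.06 without NB4 JOA 2 and 0.21 without NB4 control 2, and it was 0.02 with median-ratio scaling and with both tables rescaled to 1 common sum. RBL1 in Kasumi-1 (-0.00) was -0.10 without control 3, 0.01 without JOA 1, 0.01 without control 1 and 0.09 without control 2, and with the block 0.02 without pair 1 and 0.08 without pair 2. Without NB4 control 2, RB1 in NB4 was -0.05, RBL1 -0.06, CCND2 0.03 and the RBL1 difference between lines 0.06, and without NB4 control 1 these were 0.41 for RB1, 0.40 for RBL1, -0.40 for the RBL1 difference and -0.24 for the RBL2 difference. CCND2 was 0.01 without NB4 JOA 2. CDKN2D in Kasumi-1 with the block was -0.01 without pair 1 and -0.02 without pair 3.

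The number of NB4 genes called (1) was 0 with a pseudocount of 0.1, with no filter or with median-ratio scaling, 13 with protein-coding transcripts only, 154 with variance shared over both lines, and 1 to 6 without 1 library each. With the replicate block it was 158, but same-numbered NB4 libraries correlated at only 0.0676, so the numbers were not taken as pairs. With 2 libraries per group both pairs must give the same value. That block called UNG (limma adjusted p = 0.0395) among the listed pathway genes. In Kasumi-1 the 0 calls became 4 with shared variance and 985 with the replicate block (736 higher, 249 lower), and stayed 0 without any 1 library. Pairing was limited by its own size, with 0, 68 and 0 calls without pair 1, 2 and 3. With median-ratio scaling as well it gave 1120 calls (457 higher, 663 lower). Leaving out pairs and adding that scaling were chosen after seeing the data. The 14 differences between lines were 2 with a pseudocount of 0.1, 33 with no filter, 43 with the replicate block, 1 with both tables rescaled to 1 common sum, and 2 to 107 without 1 library each, the lowest without Kasumi-1 control 1 and the highest without NB4 control 1. Transcript calls were 0 under every setting tried. With 2 or 3 libraries per group, and few reads for CDKN1A, CDKN2D and CCND1 in Kasumi-1, differences of the size seen here were not resolved.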
